A study of Bos taurus with 90 samples.

Results

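Haptoglobin (HP, ENSBTAG00000006354), lipopolysaccharide binding protein (LBP, ENSBTAG00000016864), SERPINA3 (ENSBTAG00000007043) and the fibrinogen gamma chain (FGG, ENSBTAG00000006745) are acute phase proteins made by the liver, and their mRNA was measured in 90 liver biopsy libraries taken from steers of the Charolais (CH) and Holstein-Friesian (HF) breeds. They are 4 of the 24616 genes counted, and all 4 passed the filter on low counts that left 13945 genes over the 12 groups. They were picked by name from the genes that the study listed as differing between RFI groups, all 4 for CH steers on zero-grazed grass (ZG) and HP also for CH steers on H1. For those contrasts their values are therefore a description without a test, and tests are given for the breeds, phases and contrasts that did not choose them.

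Residual feed intake (RFI) is the feed a steer eats beyond what its weight and growth predict, so that low RFI steers are the efficient ones. Steers were offered a barley-based concentrate with a restricted amount of grass silage while growing (H1), then cut grass brought to them indoors (ZG), and the same concentrate again during finishing (H2), and a biopsy was taken at the end of each phase. Libraries came from 9 low and 11 high RFI CH steers on H1, 3 and 3 on ZG and 9 and 8 on H2, and from 7 low and 9 high RFI HF steers on H1, 10 and 8 on ZG and 5 and 8 on H2. The phases followed each other in this order, so diet cannot be told apart from age, season and order of feeding. RFI groups were the extremes of a ranking made afresh in each phase, and steers that needed veterinary treatment had been left out by the study.

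The acute phase response is the change in plasma proteins that follows infection, injury or inflammation. Interleukin-6, acting through STAT3, and interleukin-1 drive it in hepatocytes. HP binds haemoglobin freed from red cells and is a classical acute phase marker in cattle, present at little more than trace levels in healthy animals. LBP binds bacterial lipopolysaccharide and hands it to CD14 and Toll-like receptor 4. SERPINA3, antichymotrypsin, inhibits serine proteases, and in cattle it belongs to a cluster of closely similar genes. Some of its reads may fit near-identical copies equally well, and its values are uncertain to that extent. FGG is a chain of fibrinogen, the clotting protein that is also present in the absence of inflammation.

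Values are CPM, read counts scaled to the size of each library with TMM factors, which can be compared between libraries for a gene but not between genes, as gene length was not taken into account. Between 9097695 and 63621304 reads on genes stood behind each library, and the lowest read number in any library was 160 for HP, 708 for LBP, 1742 for SERPINA3 and 64561 for FGG, so counting error was small beside the differences between steers. In whole tissue, fewer cells of a type and less RNA per cell cannot be told apart. None of the markers listed for hepatocytes or other liver cells could be matched to a gene identifier, so the make-up of the biopsies was not tested.

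HP varied more between steers of the same group than nearly any other gene. Its level ran from 10.9 CPM in a high RFI CH steer on ZG (steer 1816) to 26048 CPM in a high RFI CH steer on H2 (steer 419), a 2390-fold span with a median of 112 CPM over the 90 libraries. Among the 84 libraries outside CH ZG, the SD within groups on the log2 scale was 2.60 for HP, rank 2 of 13945 genes, against a median of 0.33 over all genes. The same SD was 0.92 for LBP (rank 304), 0.83 for SERPINA3 (rank 454) and 0.48 for FGG (rank 2697). The 4 genes thus differed in how far they moved, with HP, the classical marker, moving most and FGG, the clotting protein, least.

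HP differed widely between steers of most groups. Among CH steers on H1, HP ran from 40.4 to 2795 CPM with a median of 259 in low RFI, and from 27.5 to 2809 CPM with a median of 112 in high RFI. On H2, it ran from 50.5 to 2046 CPM with a median of 489 in low RFI CH steers, and from 26.4 to 26048 CPM with a median of 87.8 in high RFI. The ranges of the RFI groups overlapped in both phases, and with all 90 libraries pooled the largest gap between neighbouring values was 0.95 on the log2 scale. Within some groups the gaps were wider, and the highest library of high RFI HF steers stood at 14682 CPM on ZG, where the next had 112 CPM, and at 7623 CPM on H2, where the next had 268 CPM.

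HP also ranged widely in HF steers. HP ran from 34.7 to 7460 CPM (median 72.0) in low and from 39.6 to 5718 CPM (median 208) in high RFI steers on H1. It ran from 15.5 to 6097 CPM (median 81.2) in low and from 13.2 to 14682 CPM (median 91.1) in high RFI steers on ZG, and from 24.7 to 1554 CPM (median 336) in low and from 39.8 to 7623 CPM (median 148) in high RFI steers on H2. In all, 19 of 90 libraries lay above 1000 CPM, a round level chosen after the values were seen. They were found in every breed and phase, namely 3 of 20 CH libraries on H1, 1 of 6 on ZG and 4 of 17 on H2, and 6 of 16 HF libraries on H1, 3 of 18 on ZG and 2 of 13 on H2. Of these libraries, 10 belonged to the 43 of low RFI and 9 to the 47 of high RFI.

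**Figure D1:**
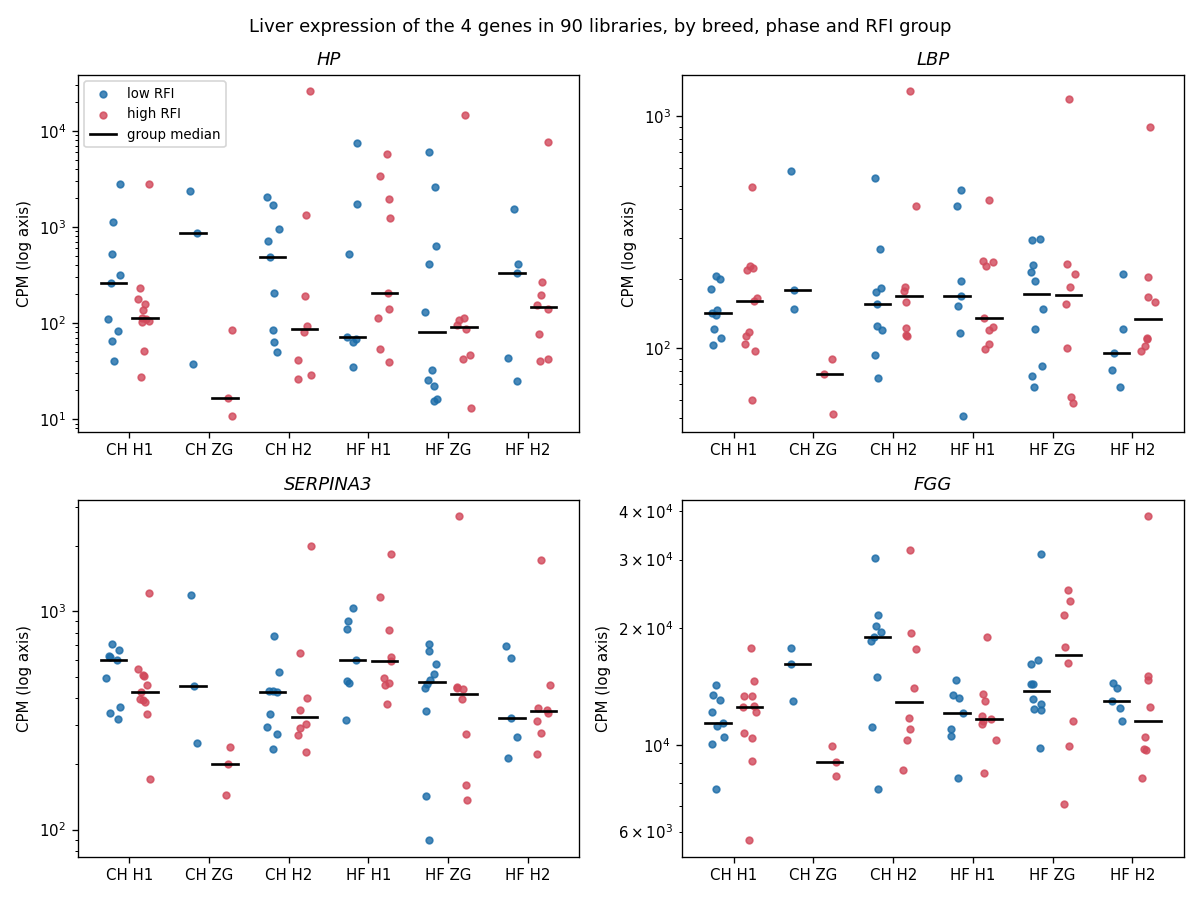
Each point is the level of HP, LBP, SERPINA3 or FGG in a library (CPM, logarithmic axis), by breed and phase on the horizontal axis and RFI group by colour, with a bar at each group median. HP spans 10.9 to 26048 CPM, and single high RFI libraries stand above their groups for HP, LBP and SERPINA3 in CH on H2, HF on ZG and HF on H2.

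LBP, the lipopolysaccharide carrier, lay between 51.3 and 1287 CPM with a median of 151. SERPINA3, the protease inhibitor, lay between 89.3 and 2741 CPM with a median of 442. FGG, the fibrinogen chain, lay between 5697 and 38878 CPM with a median of 12706. The order of the 6 breed and phase sets was not the same for each gene. By mean log2 level, CH ZG was lowest for HP, LBP and SERPINA3 and CH H1 for FGG, while HF H1 was highest for HP and SERPINA3 and CH H2 for LBP and FGG. Every pair of neighbours in these orders had overlapping ranges and differed by at most 0.75 of their pooled SD, the largest being the step from CH H1 to HF H1 for SERPINA3.

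The libraries highest in HP, LBP and SERPINA3 were largely shared, and those highest in FGG less so. When the 9 highest libraries were taken for each gene, 17 libraries were in at least 1 of the lists. Of these, 3 were in all 4 lists, 3 more in 3 of them, 4 in 2 and 7 in only 1. Those in all 4 lists were steer 419 (CH, H2), steer 2272 (HF, ZG) and steer 1639 (HF, H2), each of the high RFI group. Steer 419 had 26048 CPM of HP, 1287 of LBP, 1998 of SERPINA3 and 31807 of FGG, which was 297, 7.67, 6.08 and 2.47 times the medians of its group. Steer 2272 had 14682 CPM of HP, 1190 of LBP, 2741 of SERPINA3 and 25012 of FGG, or 161, 7.00, 6.55 and 1.47 times its group's medians. Steer 1639 had 7623 CPM of HP, 903 of LBP, 1713 of SERPINA3 and 38878 of FGG, or 51.7, 6.72, 4.91 and 3.37 times. In all 3 steers HP stood furthest above its group and FGG least.

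The libraries in 3 of the lists each lacked FGG. They were steer 364 (CH, H1, high RFI; HP 2809 CPM), steer 2071 (HF, H1, high RFI; HP 3389 CPM) and steer 5632 (HF, H1, low RFI; HP 7460 CPM). HP could also be high where LBP and FGG were low. Steer 1792 (CH, H1, low RFI) had 2795 CPM of HP, 10.8 times its group's median. Its LBP, at 104 CPM, and its FGG, at 7712 CPM, were the lowest of its group. Its SERPINA3, at 709 CPM, was the highest of its group, at 1.18 times the median. Steer 5635 (HF, ZG, low RFI) had FGG at 31000 CPM, 2.25 times its group's median, and HP at 632 CPM, 7.78 times, beside 229 CPM of LBP, 1.34 times.

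Within CH steers on ZG, the contrast that chose these genes, HP measured 37.4, 862 and 2386 CPM in the low RFI steers (788, 1831 and 357) and 10.9, 16.6 and 84.02 CPM in the high RFI steers (1816, 437 and 307). LBP measured 178, 148 and 582 CPM in the same low RFI steers and 52.3, 77.7 and 90.1 CPM in the high. The groups overlapped for HP, as steer 788 was below steer 307, and were separate for LBP. SERPINA3 measured 250, 456 and 1184 CPM against 143, 200 and 240 CPM, and FGG measured 16147, 13029 and 17760 CPM against 8341, 9059 and 9965 CPM, separate for both. The fitted log2 differences were 4.90 for HP, 2.07 for LBP, 1.71 for SERPINA3 and 0.80 for FGG. They have no test here, and 3 steers a group stood behind them. SERPINA3 came closest to overlap, with steers 788 and 307 at 250 and 240 CPM, and its difference was 0.87 without steer 357. Over all genes, 0% were called by edgeR in this contrast (0 of 13025 at an adjusted p under 0.1, with 1755 at an unadjusted p under 0.05 and 158 called by DESeq2).

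In no RFI contrast that had not chosen it was any of the 4 genes called by edgeR. All 4 were open to a test in CH on H2 and in HF on H1, ZG and H2 (0% of all genes in each; 4, 26, 2 and 5 genes by DESeq2 and 355, 863, 261 and 435 at an unadjusted p under 0.05). On H1 in CH, 0.0155% of genes were called by edgeR, beside 160 genes by DESeq2 and 1518 at an unadjusted p under 0.05. LBP differed there by -0.25 ± 0.29 (log2, low minus high RFI, ± SE), SERPINA3 by 0.13 ± 0.25 and FGG by -0.05 ± 0.15, with edgeR adjusted p of 0.770, 0.870 and 0.930. HP, which that contrast had helped to choose, differed there by 0.72 ± 0.91 and has no test. The value was 2.31 without steer 364, 2.25 by DESeq2 and 0.71 by DESeq2 with outlying counts kept. Such standard errors, HP's above all, leave room for a difference in either direction.

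On H2 in CH, HP was lower in low RFI steers by the fit (-2.29 ± 1.28, edgeR adjusted p = 0.998), although its median was higher, at 489 against 87.8 CPM. The mean was 702 CPM in low and 3479 CPM in high RFI steers, and the fitted difference turned to 1.44 without the library of steer 419. LBP differed by -0.72 ± 0.51, SERPINA3 by -0.43 ± 0.39 and FGG by 0.23 ± 0.27, each with an edgeR adjusted p of 0.998. Without steer 419 the differences of LBP and SERPINA3 turned to 0.08 and 0.22.

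In HF steers the fitted differences on H1 were near 0, at 0.01 ± 1.29 for HP, 0.24 ± 0.43 for LBP, -0.19 ± 0.33 for SERPINA3 and -0.04 ± 0.15 for FGG. On ZG, the diet of the CH contrast that chose the genes, they were -0.91 ± 1.41, -0.67 ± 0.50, -0.51 ± 0.51 and -0.13 ± 0.26. All but FGG's were opposite in sign without steer 2272, when HP reached 3.78. On H2 they were -1.20 ± 1.54, -1.04 ± 0.60, -0.29 ± 0.51 and -0.21 ± 0.33, and without steer 1639 HP, SERPINA3 and FGG turned to 1.89, 0.34 and 0.19 and LBP was -0.24. With all libraries, the edgeR adjusted p lay between 0.937 and 1.00. With means of log2 levels, which give a single high library less weight, exact permutation tests of the 19 contrasts open to a test gave two-sided p between 0.204 and 0.946, unadjusted.

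Averaged over the 4 sets whose contrasts chose none of these genes, HP differed by -1.10 ± 0.69 and LBP by -0.54 ± 0.25, lower in low RFI and thus opposite in sign to CH on ZG. SERPINA3 differed by -0.35 ± 0.22 and FGG by -0.03 ± 0.12, and all 4 had an edgeR adjusted p of 1.00 (unadjusted 0.117, 0.0333, 0.118 and 0.775; 0% of 13945 genes called, 527 at an unadjusted p under 0.05 and 0 by DESeq2). Those signs rested on steers 419, 2272 and 1639. Without these 3 libraries, left out after their values were seen, the averages were 1.78 for HP, 0.09 for LBP, 0.20 for SERPINA3 and 0.14 for FGG, with an edgeR adjusted p of 0.667 for HP and 1.00 for LBP and SERPINA3. As the libraries were all of the high RFI group and were picked for being high, leaving them out raises the difference by construction.

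**Figure D2:**
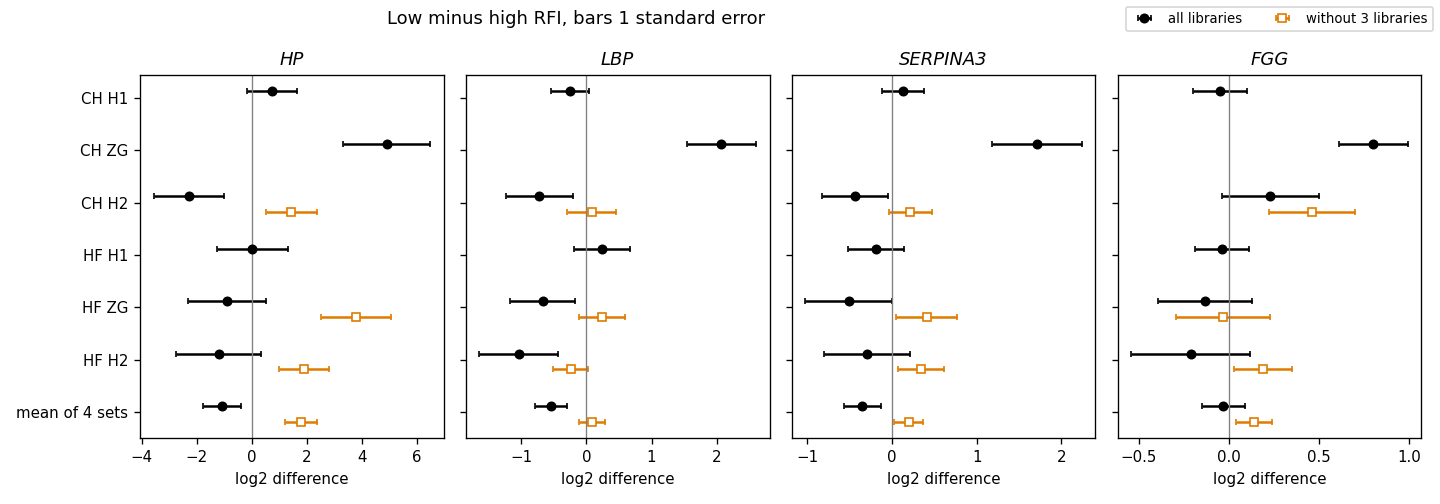
Log2 differences between low and high RFI steers (horizontal axis) by breed and phase and averaged over the 4 sets that did not choose the genes, with bars of 1 standard error. Black circles use all libraries and open squares leave out steers 419, 2272 and 1639, which changes HP from -2.29 to 1.44 in CH H2 and from -0.91 to 3.78 in HF ZG. The CH ZG values, 4.90 to 0.80, chose the genes.

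Between phases, FGG was called in 2 comparisons, 1 in each breed. In CH steers its range was 5697 to 17757 CPM with a median of 12180 on H1 (n = 20), 8341 to 17760 CPM with a median of 11497 on ZG (n = 6) and 7721 to 31807 CPM with a median of 17727 on H2 (n = 17). The ranges overlapped, yet FGG rose from H1 to H2 by 0.51 ± 0.16 (log2; edgeR adjusted p = 0.00375). In HF steers FGG ran from 8219 to 18932 CPM (median 11800, n = 16) on H1, from 7042 to 31000 CPM (median 14384, n = 18) on ZG and from 8244 to 38878 CPM (median 12545, n = 13) on H2, and it rose from H1 to ZG by 0.40 ± 0.16 (edgeR adjusted p = 0.0375). Both rises also appeared in permutation tests on log2 levels, at p of 0.00708 and 0.0344. From H1 to H2 in HF it changed by 0.21 ± 0.18 (edgeR adjusted p = 0.322).

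These calls stand against a background in which most genes differed. Of 13945 genes, 66.6% were called between H1 and H2 in CH, where HP and FGG were called, and 58% between H1 and ZG in HF, where FGG was called. In the comparisons in which none of the 4 was called, the share of all genes was 61.9% for H2 against H1 in HF, 17.8% for ZG against H1 and 2.82% for H2 against ZG in CH, and 7.24% for H2 against ZG in HF. Where HP or FGG was called, most other genes were too. Some steers gave a library to more than 1 phase, which only the fit with steers as the replicate block takes into account.

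HP rose from H1 to H2 in CH by 1.75 ± 0.89 (edgeR adjusted p = 0.0827), a call that rested on steer 419. Its median was 124 CPM on H1 (27.5 to 2809 CPM) and 191 CPM on H2 (26.4 to 26048 CPM), and the ranges overlapped. The difference was -0.14 without steer 419 (edgeR adjusted p = 0.901), 0.39 in limma-voom with steers as the replicate block (adjusted p = 0.705) and 0.51 by mean log2 level (permutation p = 0.5). LBP differed by 0.60 ± 0.32 in that comparison and missed the threshold (edgeR adjusted p = 0.101). The LBP difference fell to 0.19 without steer 419, the highest of the H2 group, whose removal lowers it by construction. It passed the threshold without steer 364 of the H1 group (0.74, edgeR adjusted p = 0.0415). Steer 364, left out after its values were seen, was the highest of its group, so leaving it out raises H2 minus H1 by construction. SERPINA3 differed by -0.07 ± 0.29 (edgeR adjusted p = 0.851).

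SERPINA3 was highest on H1 in HF steers, with 316 to 1823 CPM and a median of 596, beside medians of 444 CPM on ZG (89.3 to 2741 CPM) and 344 CPM on H2 (212 to 1713 CPM). The change was -0.42 ± 0.30 to ZG and -0.62 ± 0.33 to H2, neither called (edgeR adjusted p = 0.232 and 0.107). In limma-voom with steers as the replicate block the values were -0.73 and -0.70 and both passed (adjusted p = 0.0236 and 0.0463), and permutation tests on log2 levels gave -0.74 (p = 0.0258) and -0.71 (p = 0.0142). Steers 2272 and 1639 bore on it, as the first change was -0.89 without the former (edgeR adjusted p = 0.00469) and the second was -0.92 without the latter (edgeR adjusted p = 0.0146). These libraries were the highest of their groups, so leaving them out lowers the later phase by construction.

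HP and LBP were not called between phases in HF with all libraries. HP had medians of 174 CPM on H1, 91.1 CPM on ZG and 154 CPM on H2, and changed by -0.05 ± 0.92 from H1 to ZG and by -1.0 ± 1.04 from H1 to H2 (edgeR adjusted p = 0.969 and 0.417). Without steer 2272 the first was -2.41 (edgeR adjusted p = 0.0219), and without steer 1639 the second was -2.51 (edgeR adjusted p = 0.0463). For LBP the changes were 0.07 ± 0.34 and -0.35 ± 0.37, the second being -0.73 without steer 1639 (edgeR adjusted p = 0.0800). Both libraries were left out after their values were seen. They were the highest of their groups, so leaving them out lowers the later phase by construction. In CH, ZG differed from H1 by -1.20 ± 1.34 for HP, -0.14 ± 0.46 for LBP, -0.53 ± 0.42 for SERPINA3 and 0.02 ± 0.22 for FGG, and H2 from ZG by 2.95 ± 1.53, 0.74 ± 0.48, 0.46 ± 0.42 and 0.49 ± 0.23, with no call among the 8 (edgeR adjusted p between 0.273 and 0.960).

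**Figure D3:**
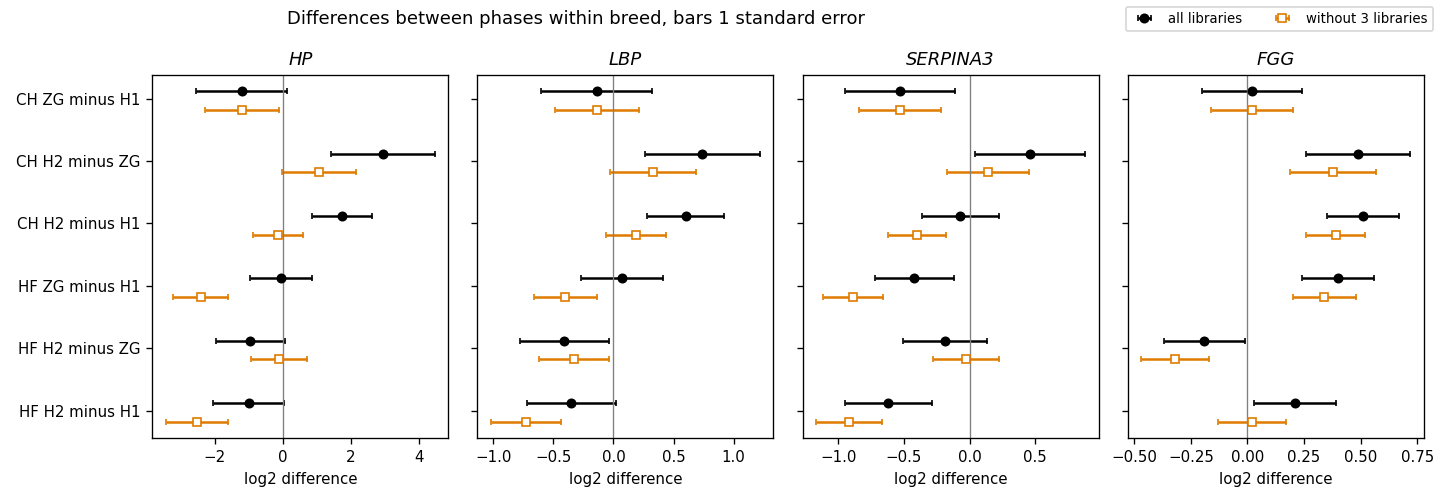
Log2 differences between phases within each breed (horizontal axis), with bars of 1 standard error. Black circles use all libraries and open squares leave out steers 419, 2272 and 1639. FGG stays above 0 in CH H2 minus H1 and HF ZG minus H1, while HP in CH H2 minus H1 goes from 1.75 to -0.14.

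The breeds did not differ detectably in any of the 4 genes. HF minus CH was 1.62 ± 0.90 for HP, 0.34 ± 0.33 for LBP, 0.49 ± 0.29 for SERPINA3 and 0.04 ± 0.16 for FGG on H1 (edgeR adjusted p = 0.579, 0.924, 0.639 and 0.999; 2.12% of genes called). On ZG the differences were 2.77 ± 1.51, 0.54 ± 0.48, 0.59 ± 0.42 and 0.42 ± 0.23 (edgeR adjusted p between 0.792 and 0.882; 0.0645% called), and on H2 they were -1.13 ± 1.03, -0.61 ± 0.37, -0.06 ± 0.32 and -0.26 ± 0.18 (edgeR adjusted p between 0.774 and 0.999; 0.81% called). Without steer 2272 the ZG differences were 0.41 for HP, 0.07 for LBP and 0.13 for SERPINA3, and on H2 the difference for HP was 0.75 without steer 419 and -2.65 without steer 1639. HP had medians of 124 CPM in CH and 174 CPM in HF on H1, 60.7 and 91.1 CPM on ZG and 191 and 154 CPM on H2, with overlapping ranges throughout.

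Tests of differences of differences gave no call for these genes either. The RFI difference did not vary detectably with breed on H2 (HP 1.14 ± 1.97, FGG -0.41 ± 0.36; edgeR adjusted p = 1.00; 0.00717% of genes called) or, for the 3 genes not chosen there, on H1 (edgeR adjusted p = 1.00; 0% called, 651 genes at an unadjusted p under 0.05, 3 by DESeq2). The change from ZG to H2 differed between breeds by -3.91 ± 1.82 for HP and -0.68 ± 0.29 for FGG, at unadjusted p of 0.0350 and 0.0213 but edgeR adjusted p of 0.888 and 0.845 (0% called, 761 at an unadjusted p under 0.05, 27 by DESeq2). For HP this value was -1.55 without steer 2272, -2.02 without steer 419, -5.42 without steer 1639 and -0.70 in limma-voom with steers as the replicate block. The change from H1 to ZG (0% called, 418 at an unadjusted p under 0.05, 1 by DESeq2) and from H1 to H2 (0% called, 330 and 0) gave edgeR adjusted p of 1.00 for all 4.

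The 4 genes tended to rise and fall together from steer to steer within groups, though HP and FGG only loosely. After each group's mean was subtracted, 71 steers outside CH ZG, with a library each, gave Pearson's r of 0.83 for LBP and SERPINA3, 0.82 for HP and SERPINA3, 0.68 for LBP and FGG and 0.66 for HP and LBP, with Spearman's rho of 0.75, 0.80, 0.67 and 0.58. Their permutation p was 1e-05 in each case, the smallest that 100000 permutations can give, and the same after adjustment over the 6 pairs. SERPINA3 and FGG gave r = 0.57 and rho = 0.50 (adjusted permutation p = 2.4e-05 and 6e-05). HP and FGG were the loosest pair, at r = 0.37 and rho = 0.37 (adjusted permutation p = 0.00596 and 0.00245).

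Leaving out the pair of libraries farthest from the median of the first gene lowered r to 0.76 for LBP and SERPINA3, 0.75 for HP and SERPINA3, 0.61 for LBP and FGG, 0.54 for HP and LBP and 0.51 for SERPINA3 and FGG. For HP and FGG it left r = 0.22 (permutation p = 0.0785), which missed the level of 0.05 used for correlations, so this relation was not shown without them. Within the 9 groups of at least 6 libraries, r was above 0 in all 9 for HP and SERPINA3 (0.52 to 0.97), LBP and SERPINA3 (0.09 to 0.99), LBP and FGG (0.45 to 0.97) and SERPINA3 and FGG (0.01 to 0.90). It was above 0 in 8 groups for HP and LBP (-0.42 to 0.97) and in 7 for HP and FGG (-0.31 to 0.87).

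**Figure D4:**
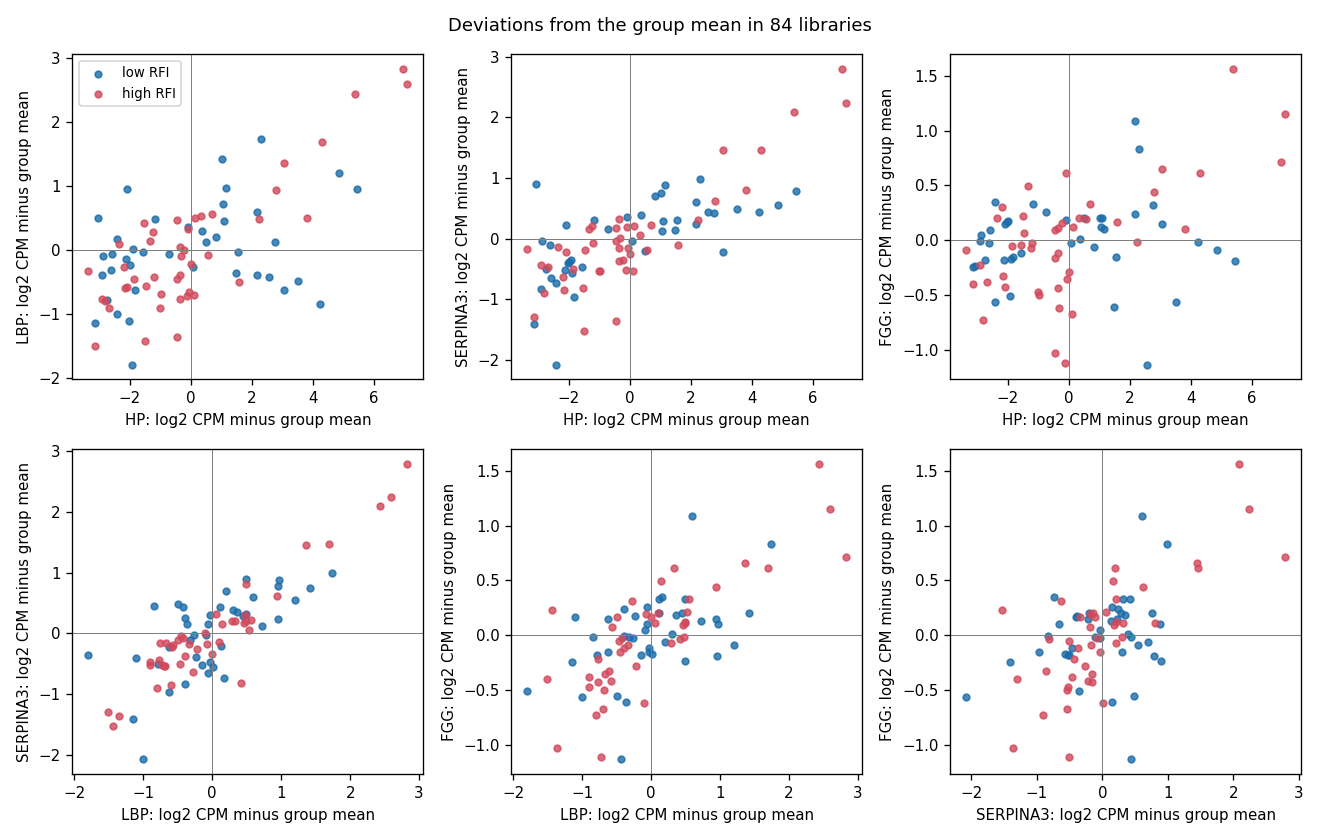
Each panel sets the deviations of a pair of genes from their group means against each other (log2 CPM) in the 84 libraries outside CH ZG, coloured by RFI group. LBP and SERPINA3 lie closest to a line, at r = 0.84 over these libraries, and HP and FGG are the most scattered, at r = 0.40, with 3 high RFI libraries at the upper right of every panel.

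Described over the 84 libraries, among which some steers appear more than once, SERPINA3 was the gene with the highest r to LBP of all 13944 other genes (r = 0.84), and SERPINA3 and LBP ranked 4 and 10 in r to HP (0.77 and 0.64). The median r of other genes to HP or LBP was at or just under 0. For FGG, LBP ranked 13 (r = 0.70), SERPINA3 194 (r = 0.58) and HP 1959 (r = 0.40). LBP and SERPINA3 were thus tied to both HP and FGG, which were less tied to each other.

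The level in a steer was not shown to be a lasting trait. In 14 steers with libraries from more than 1 phase, deviations from the group mean in the first and last phase were correlated at r = 0.08 for HP, -0.21 for LBP, 0.04 for SERPINA3 and -0.59 for FGG (rho 0.24, -0.31, -0.10 and -0.36; permutation p for r, adjusted over the 4 genes, of 0.887, 0.887, 0.887 and 0.114). The value for FGG was -0.14 without the 2 steers farthest from the median. With 14 pairs, a moderate repeatability could have gone undetected.

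HP moved within steers by a median of 10.8-fold between phases, and by up to 335-fold. Steer 5632 (HF) had 7460 CPM on H1, 22.2 CPM on ZG and 196 CPM on H2. Steer 1639 (HF) rose from 108 CPM on ZG to 7623 CPM on H2, and steer 364 (CH) went from 2809 CPM on H1 to 93.96 CPM on H2. LBP went the way of HP in steers 1639 and 364, from 101 to 903 CPM and from 499 to 114 CPM. In steer 5632 FGG did not follow HP, at 11004, 14363 and 8244 CPM on H1, ZG and H2. In steer 2220 (HF), HP went from 67.7 to 1554 CPM between H1 and H2 beside 51.3 and 68.4 CPM of LBP and 482 and 325 CPM of SERPINA3. The median within-steer span was 1.77-fold for LBP, 1.89-fold for SERPINA3 and 1.45-fold for FGG.

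The RFI group changed between phases in 6 of the 14 steers. In CH, HP was higher in the low RFI phase of all 3 that changed, at 1119 CPM (low, H1) and 29.0 CPM (high, H2) in steer 1100, 320 CPM (low, H1) and 10.9 CPM (high, ZG) in steer 1816, and 137, 84.02 and 957 CPM (high, H1; high, ZG; low, H2) in steer 307. In HF, steers 2065 and 2071 had more HP in their high RFI phase (54.1 against 16.3 CPM and 3389 against 336 CPM), and steer 5632 had both its highest and its lowest value in low RFI phases. These values are a description, since RFI group and phase changed together in a steer. All 3 of the CH steers also gave libraries to contrasts that chose HP, on H1 for each and also on ZG for steers 1816 and 307.

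**Figure D5:**
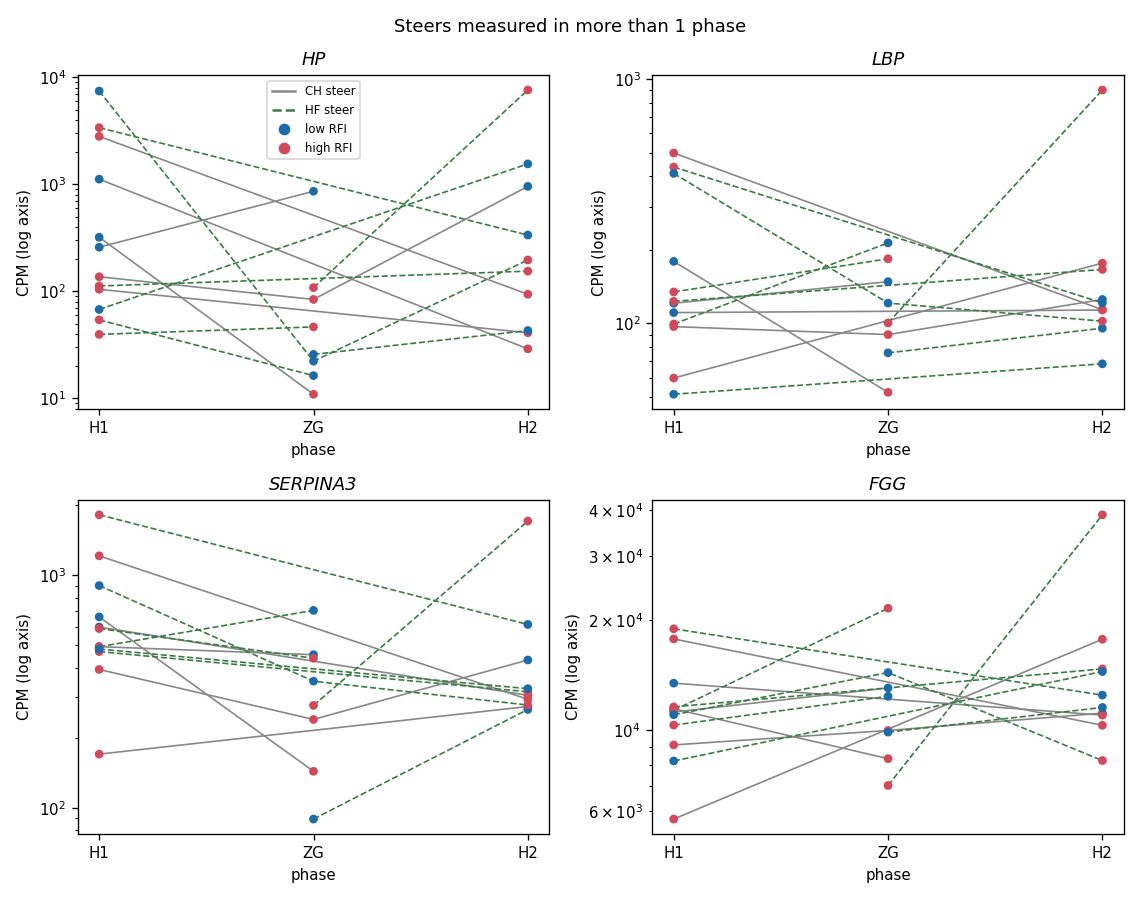
Levels (CPM, logarithmic axis) of each gene by phase in the 14 steers measured in more than 1 phase, joined by a line for each steer, with line style for breed and colour of the points for RFI group. Lines cross freely, and HP covers the widest range, with steer 5632 going from 7460 to 22.2 CPM.

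Of 31 positive acute phase proteins listed for comparison, 6 could be matched to an identifier. The names came from genes listed for RFI differences, so the matched genes were not drawn evenly. From H1 to H2 in CH, 3 of the 6 rose (HP, FGG and FGA; 66.6% of all genes were called in either direction) and 0 fell, HP's call being the one lost without steer 419, with a median log2 difference of 0.42 beside 0.033 over all genes, and from H1 to ZG in HF 2 of 6 rose (FGG and FGA; 58% of all genes called), with a median of 0.01 beside -0.009 over all genes. FGA, the fibrinogen alpha chain, rose by 0.34 ± 0.14 and 0.40 ± 0.15 in these comparisons (edgeR adjusted p = 0.0353 and 0.0215), beside 0.51 and 0.40 for FGG. M-SAA3.2 differed by -0.87 ± 0.57 and -0.46 ± 0.61 in the same comparisons, neither called (edgeR adjusted p = 0.177 and 0.543). Of the 2 matched negative acute phase proteins, FETUB, which encodes fetuin B, fell from H1 to H2 in CH (-0.68 ± 0.20, edgeR adjusted p = 0.00287) and from ZG to H2 in HF (-0.70 ± 0.23, edgeR adjusted p = 0.0607), while APOC3, an apolipoprotein, was not called in either.

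Among 4 matched genes of interleukin-1, TNF and NF-kB signalling, JUN, a subunit of the AP-1 transcription factor, fell from H1 to H2 in both breeds (-0.60 ± 0.12 in CH and -0.46 ± 0.14 in HF; edgeR adjusted p = 3.84e-05 and 0.00557) and from H1 to ZG in HF (-0.49 ± 0.13, edgeR adjusted p = 0.00133). TNFAIP3, which restrains NF-kB signalling, fell from H1 to H2 and to ZG in HF (-0.44 ± 0.13 and -0.24 ± 0.11; edgeR adjusted p = 0.00283 and 0.0671), and IL1A, an interleukin-1 cytokine, rose from H1 to ZG in HF (0.60 ± 0.24, edgeR adjusted p = 0.0339) at 0.722 CPM on average. NFKBIA was not called between phases. The share of all genes called was 66.6% from H1 to H2 in CH, 61.9% from H1 to H2 in HF and 58% from H1 to ZG in HF. No matched gene of these lists was called between breeds, whose background shares are given above.

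Few of those signalling genes varied with HP, LBP, SERPINA3 and FGG from library to library. Against the mean of the 4 genes, each scaled to the same SD, r over 84 libraries was 0.12 for TNFAIP3, 0.03 for NFKBIA, -0.11 for JUN and 0.23 for IL1A, beside a median of -0.02 over 13941 genes. FETUB gave -0.0016 and APOC3 -0.33. M-SAA3.2, a serum amyloid A gene, gave 0.13 at 1.22 CPM on average. F5, coagulation factor V, gave 0.61. With FGG alone, r was 0.43 for IL1A, -0.35 for JUN and -0.5 for APOC3, but 0.02 for TNFAIP3 and 0.09 for NFKBIA. With HP alone, IL1A, JUN and APOC3 gave 0.05, 0.06 and -0.24.

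The 10 genes most like the 4 in this measure had r between 0.74 and 0.86, and 115 genes were above 0.5. Only 2 of the 10 were paired with a name, FGA (r = 0.83, and 0.94 with FGG alone) and C5, complement component 5 (r = 0.77). The closest, ENSBTAG00000003492, had r = 0.86 at 5.81 CPM on average, and ENSBTAG00000022120, with r = 0.82, had r = 0.98 with FGG alone and 0.49 with HP. The remaining 6 were not paired with names in the sources used here.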

How the data were processed

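Counts of single-end reads per Ensembl gene (UMD3.1) were deposited by the authors, unnormalized. The submitters' processing notes name CASAVA 1.8, FastQC 0.11.5 and STAR 2.5.3a. All 90 columns matched a sample title, and 0 pairs of libraries were identical.

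RFI groups were compared within breed and phase, as in the study, with edgeR 4.0.16 (R 4.3.3; filterByExpr, TMM, robust quasi-likelihood test). Phases, breeds and differences of differences came from a fit of all 12 groups. Benjamini-Hochberg adjustment ran over all genes, with calls at an adjusted p under 0.1, the study's threshold. Correlations and permutation tests (scipy, two-sided) used log2(CPM + 0.5), with correlations judged at a permutation p of 0.05. A steer number was taken to mark the same animal within a breed, but not across breeds. The block fit therefore used limma 3.58.1 with the steer of a breed as replicate block (consensus correlation 0.124). DESeq2 1.42.0, other filters and libraries left out were alternatives. The fits were tested on simulated counts.

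The members and gene lists were chosen with earlier results of these data known. Named were the 4 genes, the matched list genes with the smallest p (at most 4 for each list and comparison), and the named ones among the 10 most like the members. Gene names came from names the study's supplement pairs with identifiers (328 genes). Of the lists, 0 genes for IL-6 and STAT3 signalling, lipopolysaccharide sensing, haemoglobin clearance and cell type markers were matched. Fibrinogen and coagulation had 3 of 14 matched (FGA, FGG, F5).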

Additional observations from a re-analysis of the deposited data

Results flagged for a closer look

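Within groups of 4 to 10 steers, 36 combinations of gene and group were tested for a sample far from the others on the log2 scale, by the gap to its neighbour over the range of the group. This found 8, where chance finds about 1 in 20, and the 4 genes are not independent of each other. Steer 1639 stood apart among high RFI HF steers on H2 for all 4 genes, with HP at 7623 CPM (next highest 268), LBP at 903 CPM (202), SERPINA3 at 1713 CPM (462) and FGG at 38878 CPM (15054). Steer 2272 stood apart among high RFI HF steers on ZG for 3 of them, with HP at 14682 CPM (next 112), LBP at 1190 CPM (231) and SERPINA3 at 2741 CPM (452). Steer 5635 did so for FGG alone among low RFI HF steers on ZG, at 31000 CPM (next 16608).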

How the results depend on the processing

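The rises of FGG from H1 to H2 in CH and from H1 to ZG in HF were called under every alternative run, and 5 of the 6 correlations kept their sign and stayed under a permutation p of 0.05. Of 1284 alternative values for the 4 genes, 1159 kept their direction and side of the threshold, 92 changed sign, 9 lost a passed threshold, 23 gained one and 1 untested value moved by more than the SD within groups. The threshold was 0.1 for adjusted p and for the phase permutation tests, and an unadjusted permutation p of 0.05 for correlations and for the r of a steer between phases, so that the r of FGG counted as past it though its adjusted p was 0.114. Among untested values that moved over 1.5 times within that SD, HP in CH on H1 reached 2.31 without steer 364 and 2.25 by DESeq2, beside 0.72, and LBP in CH on ZG was 1.16 without steer 357, beside 2.07. Most sign changes came from values that were never called. The replicate block ended the call of HP for H2 against H1 in CH, gave SERPINA3 calls for ZG and H2 against H1 in HF, and changed no other call of the 4 genes. For HP, DESeq2 gave 2.25 (RFI in CH H1), 1.35 (RFI in CH H2) and 2.31 (RFI in HF ZG). With outlying counts kept, these were 0.71, -2.3 and -0.9. Beyond that fit, added after seeing the data, and the leaving out of samples, the cause was not tested. CH on ZG had 3 steers a group. The changed values follow, as log2 differences except where r is named, with the comparison in brackets.

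Under DESeq2 the changed values were 1.35 for HP, 0.10 for LBP, 0.21 for SERPINA3 (RFI in CH H2), -0.0049 for HP (RFI in HF H1), 2.31 for HP, 0.36 for SERPINA3 (RFI in HF ZG), -0.01 for FGG (ZG against H1 in CH), -0.63 for SERPINA3 (H2 against H1 in HF), -0.02 for FGG (RFI by breed on H1). With the steer as replicate block (limma-voom) they were 0.95 for HP (RFI in CH H2), -0.78 for HP (RFI in HF H1), 0.24 for HP (RFI in HF ZG), 0.08 for HP (RFI in HF H2), 0.12 for HP, 0.04 for FGG (the RFI average of 4 sets), 0.39 for HP (H2 against H1 in CH), -0.14 for LBP, -0.73 for SERPINA3 (ZG against H1 in HF), 0.59 for HP, 0.04 for SERPINA3 (H2 against ZG in HF), -0.70 for SERPINA3 (H2 against H1 in HF), -0.0039 for FGG (RFI by breed on H1), -0.87 for HP (RFI by breed on H2), -0.50 for HP, -0.13 for SERPINA3 (ZG against H1 by breed). Without steers 419, 2272 and 1639 together, chosen after the values were seen, they were 1.44 for HP, 0.08 for LBP, 0.22 for SERPINA3 (RFI in CH H2), 3.78 for HP, 0.24 for LBP, 0.41 for SERPINA3 (RFI in HF ZG), 1.89 for HP, 0.34 for SERPINA3, 0.19 for FGG (RFI in HF H2), 1.78 for HP, 0.09 for LBP, 0.20 for SERPINA3, 0.14 for FGG (the RFI average of 4 sets), -0.14 for HP (H2 against H1 in CH), -2.41 for HP, -0.40 for LBP, -0.89 for SERPINA3 (ZG against H1 in HF), -2.52 for HP, -0.73 for LBP, -0.92 for SERPINA3 (H2 against H1 in HF), -1.21 for HP, -0.26 for LBP, -0.36 for SERPINA3 (ZG against H1 by breed), 0.22 for HP and FGG (r). With all 12 groups in a single fit the value was -0.0015 for HP (RFI in HF H1). DESeq2 with outlying counts kept, added after seeing the data, gave -0.0049 for HP (RFI in HF H1), -0.01 for FGG (ZG against H1 in CH), -0.63 for SERPINA3 (H2 against H1 in HF), -0.02 for FGG (RFI by breed on H1). DESeq2 size factors in edgeR gave -0.01 for FGG (ZG against H1 in CH), -0.02 for FGG (RFI by breed on H1). A minimum of 10 counts in every library gave -0.03 for FGG (ZG against H1 in CH), -0.68 for SERPINA3 (H2 against H1 in HF), -0.01 for FGG (RFI by breed on H1). Mean log2 levels (permutation test) gave -0.58 for SERPINA3 (ZG against H1 in CH), 0.51 for HP (H2 against H1 in CH), -0.14 for LBP, -0.74 for SERPINA3 (ZG against H1 in HF), 0.50 for HP, 0.03 for SERPINA3 (H2 against ZG in HF), -0.71 for SERPINA3 (H2 against H1 in HF). At an adjusted p under 0.05 a call was lost at 1.75 for HP (H2 against H1 in CH). No filter gave 1.70 for HP (H2 against H1 in CH), -0.03 for FGG (RFI by breed on H1). Without steer number 1797, which stands on a library of each breed, the values were 1.68 for HP, 0.63 for LBP (H2 against H1 in CH), 0.02 for SERPINA3 (breed on H2). The fit of a breed alone gave 0.60 for LBP (H2 against H1 in CH). Without the 2 libraries farthest from the median the value was 0.22 for HP and FGG (r). With group means kept they were -0.0038 for SERPINA3 (r between phases), -0.50 for FGG (r between phases). Without the 2 steers farthest from the median it was -0.14 for FGG (r between phases).

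Leaving out a library at a time gave 0.03 for LBP, 0.02 for FGG (RFI in CH H1), 0.87 to 2.09 for SERPINA3 (RFI in CH ZG), 1.44 for HP, 0.08 for LBP, 0.22 for SERPINA3 (RFI in CH H2), 3.78 for HP, 0.24 for LBP, 0.41 for SERPINA3 (RFI in HF ZG), -2.46 to 1.89 for HP, -0.54 to 0.34 for SERPINA3, -0.26 to 0.19 for FGG (RFI in HF H2), -1.40 to 0.08 for HP, -0.04 to 0.06 for FGG (the RFI average of 4 sets), -0.59 to 0.02 for LBP, -0.03 to 0.08 for FGG (ZG against H1 in CH), -0.14 to 2.55 for HP, 0.19 to 0.74 for LBP, -0.40 to 0.05 for SERPINA3 (H2 against H1 in CH), -2.41 for HP, -0.40 for LBP, -0.89 for SERPINA3 (ZG against H1 in HF), -2.46 to 1.41 for HP, -0.80 to 0.06 for LBP, -0.49 to 0.28 for SERPINA3 (H2 against ZG in HF), -2.51 to -0.85 for HP, -0.73 to -0.28 for LBP, -0.92 to -0.53 for SERPINA3 (H2 against H1 in HF), -2.65 to 0.75 for HP, -0.36 to 0.27 for SERPINA3 (breed on H2), -0.06 for FGG (RFI by breed on H1), -2.63 to 4.16 for HP, -1.08 to 0.50 for LBP, -0.48 to 0.78 for SERPINA3 (RFI by breed on H2), -1.21 to 1.87 for HP, -0.26 to 0.65 for LBP, -0.36 to 0.53 for SERPINA3 (ZG against H1 by breed).

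Over all genes, the number called ranged over the alternatives from 0 to 167 beside 2 (RFI in CH H1), from 0 to 159 beside 0 (RFI in CH ZG), from 0 to 6 beside 0 (RFI in CH H2), from 0 to 29 beside 0 (RFI in HF H1), from 0 to 2 beside 0 (RFI in HF ZG), from 0 to 5 beside 0 (RFI in HF H2), from 322 to 3979 beside 2476 (ZG against H1 in CH), from 57 to 717 beside 393 (H2 against ZG in CH), from 509 to 1266 beside 1010 (H2 against ZG in HF), from 130 to 669 beside 295 (breed on H1), from 0 to 17 beside 9 (breed on ZG), from 40 to 156 beside 113 (breed on H2), from 0 to 4 beside 0 (RFI by breed on H1), from 0 to 2 beside 1 (RFI by breed on H2), from 0 to 2 beside 0 (ZG against H1 by breed), from 0 to 27 beside 0 (H2 against ZG by breed).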
